A study of Mus musculus with 6 samples.

Results

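The heat shock and DNAJ chaperones were measured in cranial mesoderm and in cranial neural crest, both sorted from mouse embryo heads at embryonic day 9.5. The genes were taken by symbol: HSP70 and HSP110 proteins, HSP90, the mitochondrial chaperonin, small heat shock proteins, heat shock factors and the DNAJA, DNAJB and DNAJC proteins. The rule found 134 of 34885 array probes with a single gene symbol, for 67 of 19057 genes. Of these, 44 genes were detected well enough to be tested, among 9214 genes in all. Hsf1 and Hsp90ab1 are not analysed here, since no probe used here carries their symbols.

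Mesoderm cells came from embryos of a Mesp1-Cre x Z/EG cross and crest cells from embryos of a Wnt1-Cre x Z/EG cross, both on a C57Bl/6 x 129 x ARC/s background. In each cross Cre recombinase switches on GFP from the Z/EG reporter, and GFP-positive cells were collected by flow sorting, 3 independently isolated samples of each population. Mesp1-Cre acts in early mesoderm, so its descendants include vessel, blood and heart cells beside head mesenchyme, and Wnt1-Cre acts in the dorsal neural tube and midbrain as well as in the crest that leaves them. RNA was amplified and hybridized to 6 Illumina whole-genome bead arrays, with the mesoderm arrays at one end of a single chip and the crest arrays at the other, so position and cell type cannot be told apart. Between 30.8% and 34.1% of probes were detected on an array, and the median signal was 99.8 to 131.

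Markers of both populations went with the labels. All 5 tested cranial mesoderm markers were higher in mesoderm, and 4 of 6 migratory crest markers and all 7 neural tube and midbrain markers were lower. Markers of other cell types that either Cre line can mark were measured beside them. Of the tested endothelial markers 9 of 10 were higher in mesoderm, as were 7 of 7 for macrophages and platelets, 4 of 7 for red cells and 3 of 3 for heart and smooth muscle. Over all genes tested 10.1% were higher and 8.25% lower. Some markers were detected in 1 population only, so they entered the test only through the population where they are high. These were all 7 macrophage and platelet markers, Pecam1, Emcn, Icam2, Sox18, Tbx1, Tcf21, Actc1, Alas2, Tfap2a and Wnt1. Red cell genes also varied among the crest arrays: their summed normalised intensity was 14979 to 23960 on the mesoderm arrays, against 4926, 239.2 and 2753 on crest arrays 1, 2 and 3.

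Molecular chaperones bind unfolded or partly folded proteins and help them to fold, to cross membranes or to be degraded. HSP70 proteins do this in cycles of ATP hydrolysis that DNAJ proteins start through their J domain and that HSP110 proteins reset by exchanging the nucleotide, while HSP90 takes over later folding steps of kinases and receptors. Small heat shock proteins hold unfolded proteins without ATP, and the HSPD1 and HSPE1 proteins form the folding chamber of mitochondria. Heat shock factors raise many of these genes after heat or other damage by binding heat shock elements, whereas unfolded protein in the endoplasmic reticulum (ER) acts through ER stress response elements.

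Promoter windows with letters that match these elements are shown first, because heat shock and ER stress are known to act through elements of these kinds. RefSeq promoter windows (build GRCm38.p6, 250 bases before to 50 after each start) were at hand for 55 of the 67 genes. A heat shock element of 3 alternating units (GAANNTTCNNGAA on either strand) was present in those of 4 genes (7.27%), against 0.662% of 27025 genes in the whole promoter table. These were Hspd1, Hspe1, Dnajb6 and Hsph1. Of the heat-inducible genes taken below as the heat shock response, Hsph1 alone was a carrier, and the others had no match or no window. For one start of Hspd1, 216 bases from the Hspe1 start, Hspd1 and Hspe1 lie head to head and share an element between these starts. Another Hspd1 start lies 95 bases beyond the Hspe1 start, so from there the genes overlap on opposite strands. The shared element contains 2 overlapping matches and begins 89 bases before the Hspe1 start. The Dnajb6 element begins 46 bases before one start and 127 before another. Capitals mark the matches, on the plus strand at chr1:55088053-55088082 for the shared promoter and at chr5:29735822-29735894 for Dnajb6. The Hsph1 match lies downstream of the start and is not shown.
Hspe1 and Hspd1: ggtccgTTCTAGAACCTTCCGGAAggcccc
Dnajb6: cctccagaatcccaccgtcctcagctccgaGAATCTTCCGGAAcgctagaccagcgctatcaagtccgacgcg

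The ER stress response element (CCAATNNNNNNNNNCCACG on either strand) was found in 3 of the 55 genes (5.45%), against 0.137% of all genes. The carriers were Hspa5, Hsp90b1 and Dnajc3, whose proteins all work in the ER lumen. The stretches shown are chr2:34771995-34772073 on the plus strand for Hspa5, chr10:86705503-86705686 on the minus strand for Hsp90b1 and chr14:118937797-118937875 on the plus strand for Dnajc3. Capitals again mark the matches, and Hsp90b1 has 2 of them, one in each orientation. A match of letters is a description of the window and not a measured binding site.
Hspa5: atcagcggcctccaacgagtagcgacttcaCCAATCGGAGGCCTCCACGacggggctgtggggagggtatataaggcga
Hsp90b1: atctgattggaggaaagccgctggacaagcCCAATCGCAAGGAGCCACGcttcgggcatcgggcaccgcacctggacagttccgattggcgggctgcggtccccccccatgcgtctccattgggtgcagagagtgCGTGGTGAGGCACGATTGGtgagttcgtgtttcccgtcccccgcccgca
Dnajc3: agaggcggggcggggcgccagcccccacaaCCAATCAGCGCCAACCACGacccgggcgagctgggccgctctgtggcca

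Of the 44 chaperone genes tested, 2 were higher in mesoderm (Hspa12b and Dnajc3) and 2 were lower (Dnajc27 and Hspb2), a share of 9.09%. Over all 9214 genes the share was 18.3%, made up of 10.1% higher (927 genes) and 8.25% lower (760 genes). Median scaling in place of quantile normalization gave 1 chaperone higher and 2 lower, and 595 genes higher and 729 lower of all. The test was limma's moderated test on normalised log2 intensity, 3 arrays against 3, with Benjamini-Hochberg adjustment over all genes tested and a threshold of 0.05. All differences are mesoderm minus crest on the log2 scale, with the moderated standard error (SE), and p-values measure the spread among these 6 arrays only. The differences ran from -1.29 to 2.24, with a median of -0.13 for the chaperones and -0.07 for all genes. They were below 0 in 30 genes and above 0 in 14. The mesoderm and crest arrays did not overlap in 6 genes that were higher and 10 that were lower, together 36.4%. Over all genes the share without overlap was 37.2%, with 17.6% higher and 19.6% lower.

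**Figure D1:**
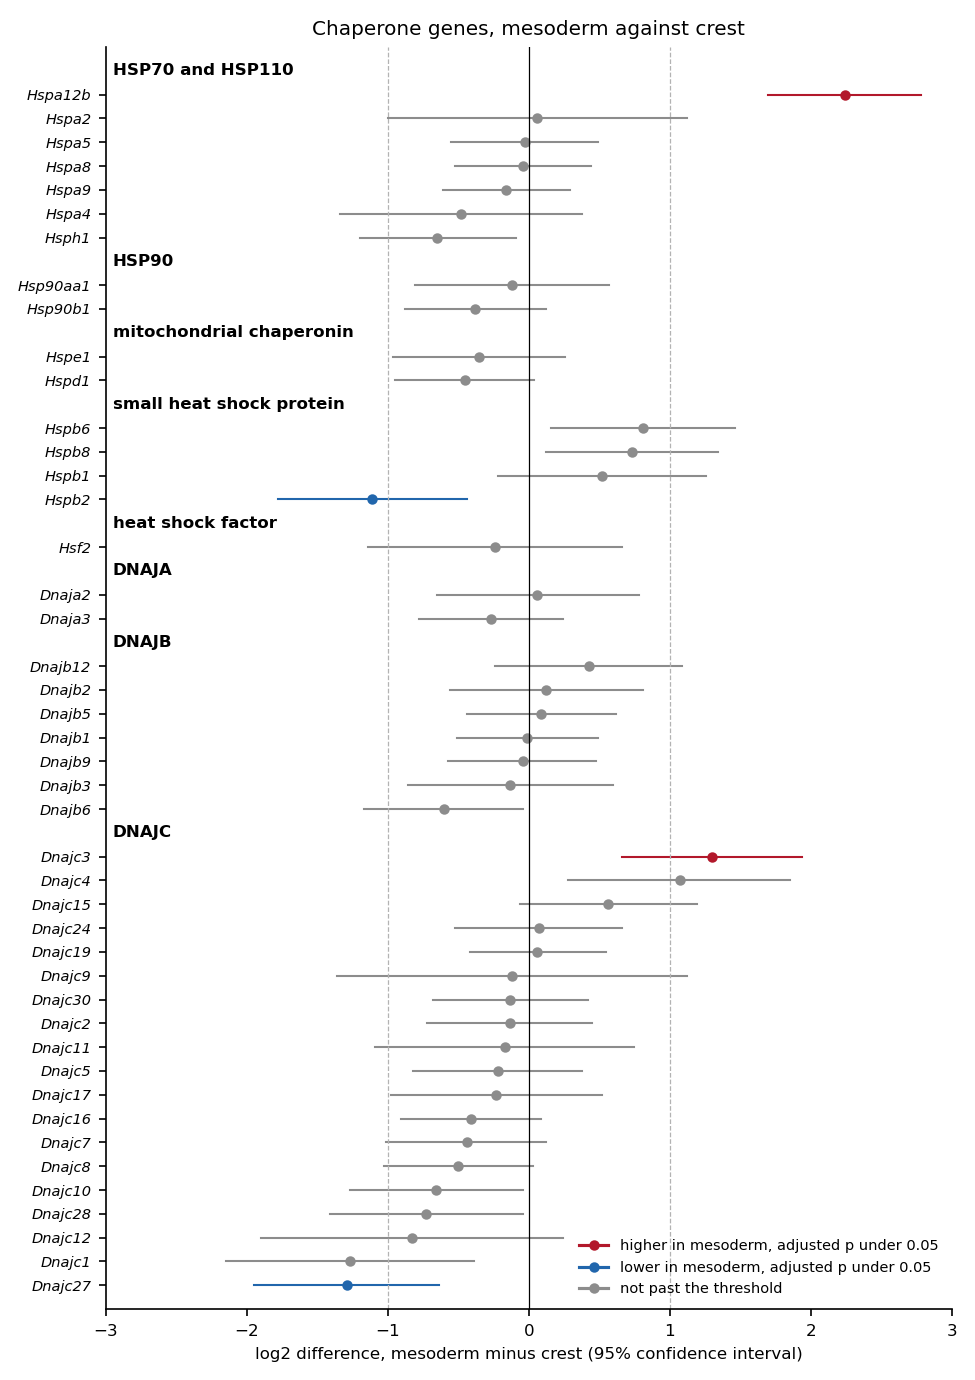
Log2 difference of each of the 44 tested chaperone genes (mesoderm minus crest, log2 scale), by family, with the 95% confidence interval as bars. Red marks the 2 genes higher in mesoderm and blue the 2 genes lower at an adjusted p under 0.05, dashed lines mark 2-fold, and 32 intervals contain 0. The Hspb2 point is set against background in mesoderm, where it was detected on no array.

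The typical size of a difference was close to that of all genes. The median absolute difference was 0.37 for the chaperones and 0.41 for all genes. In 21 chaperones (47.7%) the whole 95% interval lay within a 2-fold change in either direction, against 44.3% of all genes. A difference of 1 or more was seen in 6 chaperones (13.6%), against 17.9% of all genes. Chaperones read by bright probes held none of the calls. Among the 19 that fall in the brightest 25% of genes tested, a split made after the values were seen, limma's adjusted test called 0, and 4 (21.1%) had an unadjusted p under 0.05. Of all genes in that bracket 9.98% were called and 23.5% had an unadjusted p under 0.05.

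Of the 67 genes, 23 were not tested, because no single probe was detected on at least 3 arrays. No array detected the heat-inducible HSP70 genes Hspa1a and Hspa1b, nor 12 others (Hspa1l, Hspa14, Hspb3, Hspb7, Hspb9, Hspb11, Dnajb7, Dnajb8, Dnajb14, Dnajc5b, Dnajc5g and Dnajc14). The most arrays on which any 1 probe was detected was 1 for Hspa4l, Hspa12a, Hspa13, Dnajb4, Dnajc18 and Dnajc25, and 2 for Dnaja1, Dnajb13 and Dnajc6. Undetected here means not above the array's background, so these genes have no measured difference. Of the 44 tested genes, 33 were detected on all 6 arrays, Hspa12b and Dnajc3 among them.

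Among HSP70 and HSP110 genes, 7 of 14 were tested, and Hspa12b alone passed the threshold. Hspa12b encodes a divergent HSP70 protein known from mouse endothelium, where it takes part in vessel growth. Its log2 intensity was 9.75, 9.36 and 10.00 on the mesoderm arrays, against 7.58, 7.46 and 7.35 on the crest arrays. Every mesoderm array stood far above every crest array. The means were 9.70 ± 0.32 in mesoderm and 7.46 ± 0.11 in crest (SD, n = 3 each), a difference of 2.24 ± 0.24 (SE; limma adjusted p = 0.000313), or 4.72-fold. It passed the threshold in all 15 alternative settings, with differences of 1.75 to 2.41. The summed normalised intensity of 10 endothelial markers was also higher in mesoderm, at 24974 to 32279 on the mesoderm arrays and 385.5 to 498.6 on the crest arrays. The sums for red cells, for macrophages and platelets and for heart and smooth muscle were higher in mesoderm too. Of the endothelial markers, Kdr did not differ (-0.12). Pecam1, Emcn, Icam2 and Sox18 were detected on no crest array, and Cdh5, Esam and Tek on 1 each. Cldn5, Flt1 and Kdr were detected on all 3 crest arrays, as was Hspa12b. The part of endothelial cells in the Hspa12b result was not tested, and in such bulk samples more cells of a type and more RNA per cell cannot be told apart.

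The 3 constitutive HSP70 genes of the cytosol, mitochondria and ER gave no calls. Hspa8 encodes the general cytosolic HSP70. It stood at 13.24, 13.00 and 13.39 in mesoderm, against 13.24, 13.22 and 13.29 in crest. The crest arrays lay inside the mesoderm range, and the difference was -0.04 (95% interval -0.52 to 0.44; limma adjusted p = 0.919). These values lay near the top of the scale, which ended at 13.79 on every array. Hspa9, the mitochondrial HSP70, stood at 12.89, 12.89 and 12.95 in mesoderm, against 13.01, 13.14 and 13.05 in crest. Its groups did not overlap, but the difference of -0.16 did not pass the test (limma adjusted p = 0.634). The values of this probe too lay near the top of the scale. A second Hspa9 probe read 10.02, 9.92 and 9.46 in mesoderm, against 10.19, 10.95 and 10.32 in crest, also without overlap. It differed by -0.68 ± 0.28 and did not pass (limma adjusted p over probes = 0.141). Hspa5, the ER HSP70 also called BiP, read 5.73, 5.23 and 5.73 in mesoderm, against 5.55, 5.54 and 5.70 in crest. Those readings overlapped and were near background, with 2 of 3 mesoderm arrays above it, and its difference was -0.03 (-0.55 to 0.49).

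Hsph1, an HSP110 protein that exchanges nucleotide on HSP70, had the largest difference of its class among genes that did not pass. It stood at 11.85, 11.31 and 11.93 in mesoderm, against 12.45, 12.43 and 12.15 in crest. All mesoderm arrays were below all crest arrays, with a difference of -0.65 (-1.20 to -0.09; limma adjusted p = 0.104). Across the alternative settings its difference was -0.84 to -0.46, and it passed in none. Hspa4, the other HSP110 gene tested, differed by -0.48 ± 0.38 with overlapping arrays. Hspa2, best known from spermatogenesis, differed by 0.06 ± 0.47, and its mesoderm arrays were widely spread, at 5.27, 6.91 and 7.24.

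**Figure D2:**
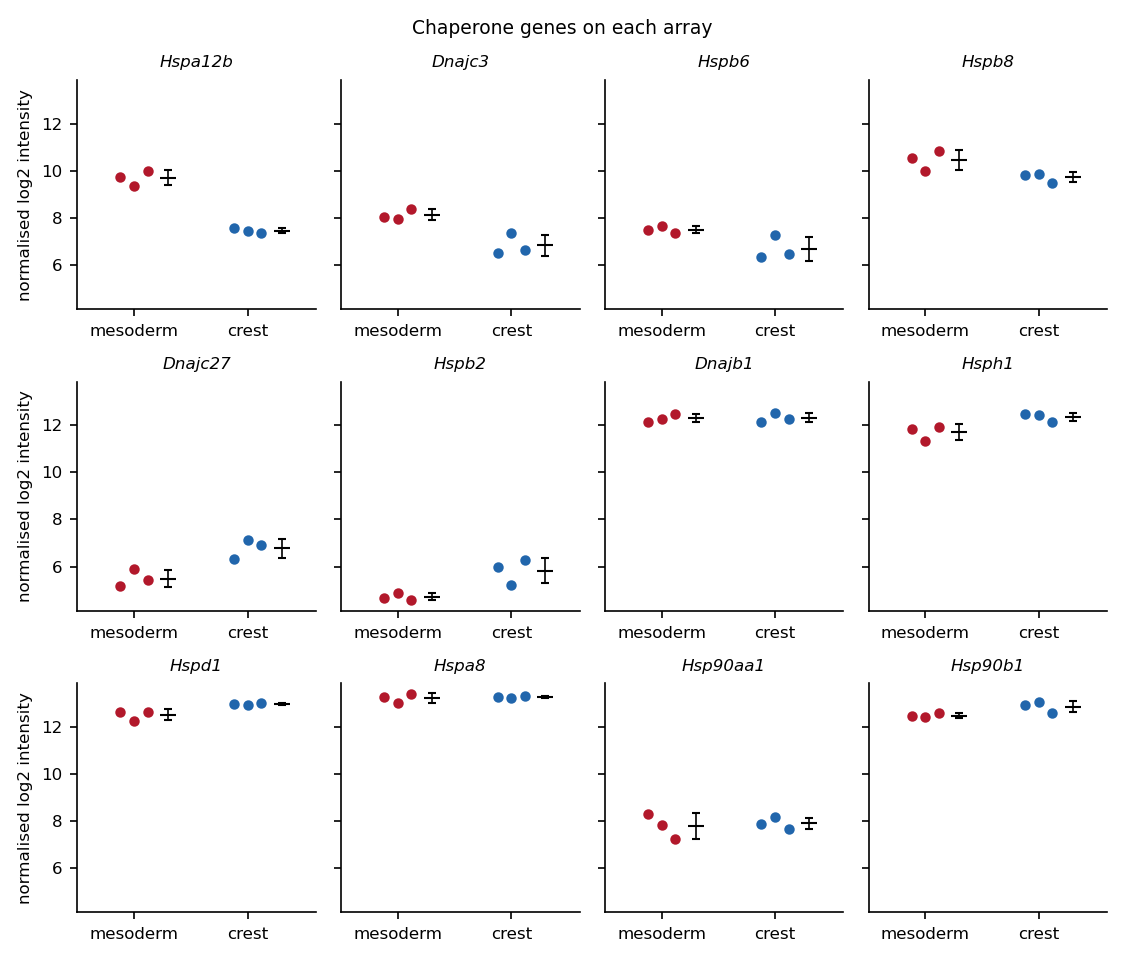
Normalised log2 intensity on each of the 3 mesoderm and 3 crest arrays for 12 chaperone genes named in the text, with the group mean and SD as bars. The Hspa12b arrays of mesoderm (9.36 to 10.00) lie above those of crest (7.35 to 7.58), whereas the Hspa8 arrays overlap.

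HSP90 and the mitochondrial chaperonin gave no calls. Hsp90aa1 encodes the stress-inducible cytosolic HSP90 and read 8.31, 7.81 and 7.23 in mesoderm, against 7.87, 8.15 and 7.68 in crest. The arrays overlapped, and the difference was -0.12 (-0.81 to 0.57; limma adjusted p = 0.836). Hsp90b1, the ER HSP90 also called GRP94, stood at 12.43, 12.39 and 12.58 in mesoderm, against 12.92, 13.04 and 12.58 in crest. Mesoderm array 3 equalled crest array 3 to the second decimal, so the groups met, and the difference was -0.38 (-0.88 to 0.12; limma adjusted p = 0.278).

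Hspd1, the large chaperonin subunit, stood at 12.64, 12.23 and 12.62 in mesoderm, against 12.96, 12.92 and 12.98 in crest. All mesoderm arrays were lower, by 0.45 on average (difference -0.45, -0.95 to 0.04; limma adjusted p = 0.189). With the mean of its 2 detected probes in place of the brighter one the difference was -0.79 and passed (limma adjusted p = 0.0475). Hspe1, the lid of the chamber and the partner of Hspd1 across the shared promoter, stood at 11.33, 11.46 and 11.43 in mesoderm, against 12.21, 11.30 and 11.76 in crest. Those arrays overlapped, and the difference was -0.35 (-0.96 to 0.26; limma adjusted p = 0.414). Both intervals lay within a 2-fold change.

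The 4 carriers of a heat shock element named above all had differences below 0 and none passed. The differences were -0.65 for Hsph1, -0.60 for Dnajb6, -0.45 for Hspd1 and -0.35 for Hspe1, and the last 2 genes share their element. A difference below 0 was also found in 68.2% of the tested chaperones and 55.5% of all genes. The signs of the 4 carriers were the same in all 15 alternative settings that give 1 value per gene. Those settings reuse the same 6 arrays, and 1 other Dnajb6 probe was at 0.34. Hsf2, a heat shock factor known from development, differed by -0.24 ± 0.40 and was above background on 2 mesoderm and 3 crest arrays. It read 5.18, 6.01 and 5.95 in mesoderm, against 6.80, 5.63 and 5.43 in crest, and crest array 1 was the highest of overlapping values.

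Of 8 small heat shock protein genes 4 were tested. Hspb2 was lower, and the other 3 had differences above 0 that did not pass. The median absolute difference of the 4 tested genes, Hspb2 included, was 0.77, against 0.41 for all genes. Hspb2, a protein first found bound to the myotonic dystrophy kinase of muscle, was detected on no mesoderm array and on all 3 crest arrays. Its log2 intensity was 4.68, 4.89 and 4.59 in mesoderm, against 6.00, 5.23 and 6.27 in crest. The crest arrays were all higher, but crest array 2 by little. Because the mesoderm values are background, the fold is a bound, at least 1.43-fold lower in mesoderm (limma adjusted p = 0.0325). Hspb2 passed the detection filter through the crest arrays alone, so the filter itself asked for a difference in this direction. It did not pass without any one of the mesoderm arrays, with adjusted p of 0.102, 0.0573 and 0.0767 without arrays 1, 2 and 3, nor in the authors' log2 values (difference -0.42, limma adjusted p = 0.0867).

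Hspb6, a small heat shock protein of smooth muscle and heart, stood at 7.49, 7.65 and 7.36 in mesoderm, against 6.35, 7.26 and 6.46 in crest. All mesoderm arrays were higher, narrowly so against crest array 2. The difference was 0.81 ± 0.28 (limma adjusted p = 0.0837), and without crest array 2 it was 1.08 and passed (adjusted p = 0.0234). Over the 15 settings it was 0.45 to 1.08. Hspb8, which works with BAG3 in the removal of misfolded proteins, stood at 10.53, 10.01 and 10.83 in mesoderm, against 9.84, 9.85 and 9.49 in crest. Here mesoderm array 2 was the one close to crest. The difference of 0.73 ± 0.27 did not pass (limma adjusted p = 0.096), and without mesoderm array 2 it was 0.96 and passed (adjusted p = 0.0429). Its range over the settings was 0.45 to 0.96. Hspb1, an actin-protecting protein induced by heat, read 5.02, 5.38 and 6.19 in mesoderm, against 5.06, 5.23 and 4.74 in crest. It was near background on most arrays, with a difference of 0.52 ± 0.32 (limma adjusted p = 0.315). With the deposited detection p-values in the filter, which read Hspb1 from another probe, the difference was 0.02.

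Beside these values, the 3 tested heart and smooth muscle markers (Myl4, Actc1 and Acta2) were all higher in mesoderm, with a summed intensity of 2875 to 4943 on the mesoderm arrays and 244 to 649.1 on the crest arrays. The other 5 on the array, among them Nkx2-5, Myl7 and Myh6, were not detected well enough to be tested. The part of muscle cells in the Hspb6 and Hspb8 values was not tested.

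The heat shock response was set beside 28 immediate early and general stress genes on the array, a list drawn up for tissue dissociation and stress. Of 21 tested, 9 were higher in mesoderm and 0 lower by limma's adjusted test, a share of 42.9%, against the 18.3% of all genes given above. An unadjusted p under 0.05 in either direction was found for 14 of them (66.7%), against 32.4% of all genes. The median difference was 0.93, and the count of higher genes was 3 without mesoderm array 1, 5 without mesoderm array 3 and 5 without crest array 2. Differences were above 0 in 17 genes and below 0 in 4, namely Gadd45a (-1.17), Ddit4 (-0.66), Egr2 (-0.58) and Gadd45g (-0.42). Fos, an immediate early transcription factor, stood at 8.62, 6.81 and 8.26 in mesoderm, against 4.74, 4.61 and 4.74 in crest, where no array detected it. It was at least 6.28-fold higher in mesoderm (limma adjusted p = 0.00115), but it passed the detection filter through the mesoderm arrays alone, so the filter asked for a difference in this direction. The same holds for Atf3 and Gadd45b, which are also among the 9. With detection required on all 6 arrays, 5 of 14 tested stress genes were higher, against 519 of 7213 among all genes. Zfp36, which destabilises messenger RNA, was higher by 1.98 ± 0.24 (limma adjusted p = 0.00059).

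Of the heat-inducible genes taken as the heat shock response, Dnajb1, Hsph1, Hsp90aa1 and Hspb1 were tested and did not pass. Dnajb1, the main stress-induced J protein and the partner of cytosolic HSP70, stood at 12.15, 12.25 and 12.48 in mesoderm, against 12.13, 12.51 and 12.28 in crest. These arrays overlapped throughout, with a difference of -0.01 (-0.51 to 0.49; limma adjusted p = 0.983). The intervals of Hsph1, Hsp90aa1 and Hspb1 are given above, and Hspa1a and Hspa1b, detected on no array, were not tested. Dissociation was not measured apart from cell type, and any part of it in the chaperone values was not tested.

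**Figure D3:**
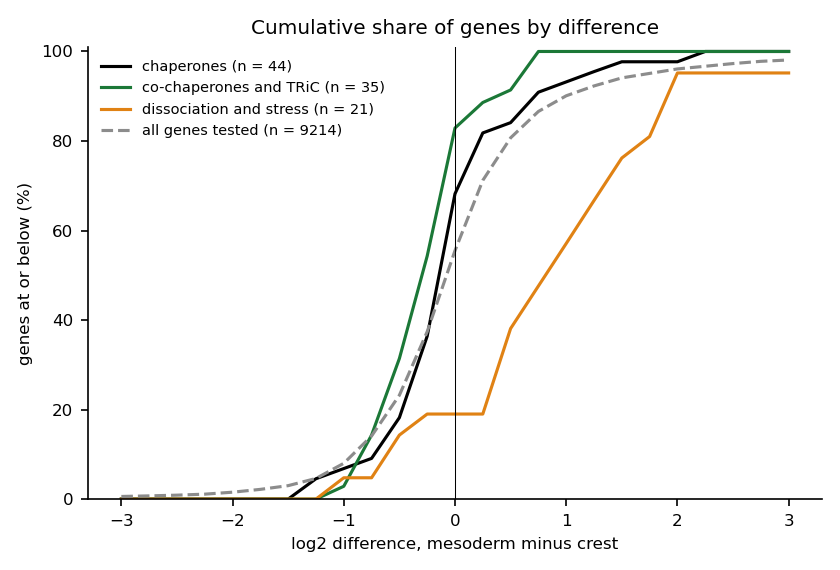
Share of genes (%) whose log2 difference, mesoderm minus crest, is at or below the value on the horizontal axis, for chaperones, co-chaperones with TRiC, dissociation and stress genes, and all genes tested. At 0 the share is 68.2% for chaperones, 82.9% for co-chaperones, 19% for stress genes and 55.5% for all genes.

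DNAJ proteins made up 28 of the 44 tested genes, of which 1 was higher and 1 lower, with a median of -0.13. The DNAJA and DNAJB families gave no calls among 9 tested genes. Dnaja3, the mitochondrial J protein also called Tid1, stood at 11.16, 11.05 and 10.85 in mesoderm, against 11.23, 11.54 and 11.10 in crest. The groups overlapped slightly, with a difference of -0.27 (-0.78 to 0.24; limma adjusted p = 0.453). Dnajb6 encodes a J protein that holds back aggregation and is needed for the mouse placenta. It stood at 9.75, 9.74 and 10.23 in mesoderm, against 10.69, 10.20 and 10.64 in crest, where mesoderm array 3 just reached the lowest crest array. The difference was -0.60 (-1.17 to -0.04; limma adjusted p = 0.131). The other 6 genes of these families had differences of -0.13 to 0.43 and adjusted p of 0.356 or more, Dnajb1 aside.

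Within DNAJC, 19 of 25 genes were tested, 1 was higher, 1 was lower and the median was -0.22. Dnajc3, also called p58IPK, assists BiP in the ER and restrains kinases that stop translation under ER stress. It read 8.04, 7.97 and 8.40 on the mesoderm arrays, against 6.53, 7.36 and 6.63 on the crest arrays. Every mesoderm array was higher, and crest array 2 was the closest to them. The means were 8.14 ± 0.23 in mesoderm and 6.84 ± 0.46 in crest (SD, n = 3 each), a difference of 1.30 ± 0.28 (SE; limma adjusted p = 0.0138), or 2.45-fold. The call was lost without crest array 1 (1.13, adjusted p = 0.0539), without crest array 3 (1.19, adjusted p = 0.0753) and with median scaling in place of quantile normalization (0.98, adjusted p = 0.117). It was 0.81 in the authors' log2 values (adjusted p = 0.0193) and 0.83 with no background correction (adjusted p = 0.0189). Without crest array 2 the difference was 1.54 (adjusted p = 0.0071). Crest array 2, the highest crest array for Dnajc3, had the lowest summed red cell intensity, at 239.2. That sum was 4926 and 2753 on crest arrays 1 and 3, where Dnajc3 was lower. The part of red cells in the Dnajc3 result was not tested.

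Of 12 other genes of ER folding and the unfolded protein response that were tested, Xbp1 was higher and Pdia4 lower. That share of 16.7% was near the 18.3% of all genes, and the median difference was -0.16, against -0.07 for all genes. Xbp1, a transcription factor of the unfolded protein response, stood at 11.31, 11.64 and 11.45 in mesoderm, against 10.16, 10.94 and 10.12 in crest. Its groups did not overlap, with a difference of 1.06 ± 0.28 (limma adjusted p = 0.0294). Pdia4, a disulfide isomerase, read 6.93, 5.84 and 6.39 in mesoderm, against 7.34, 7.98 and 7.89 in crest, again without overlap and with a difference of -1.35 ± 0.32 (limma adjusted p = 0.021). The other carriers of the ER element, Hspa5 and Hsp90b1, did not pass, with the values given above. Dnajb9, an ER J protein of the unfolded protein response, differed by -0.04 ± 0.23, and Dnajc10, an ER reductase, by -0.66 ± 0.27 (limma adjusted p = 0.131). Those last 2 genes were chosen after their values were seen.

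Dnajc27 encodes an atypical small GTPase with a J domain. It read 5.18, 5.89 and 5.42 on the mesoderm arrays, of which 2 were above background, against 6.34, 7.12 and 6.91 on the crest arrays. All mesoderm arrays were lower. The means were 5.50 ± 0.36 in mesoderm and 6.79 ± 0.40 in crest (SD, n = 3 each), a difference of -1.29 ± 0.29 (SE; limma adjusted p = 0.0157). The call was lost without crest array 2 (-1.09, adjusted p = 0.0613), crest array 3 (-1.25, adjusted p = 0.077) or mesoderm array 1 (-1.16, adjusted p = 0.071). In the authors' log2 values, which hold no background correction, it was -0.54 and passed (adjusted p = 0.0476). A second probe of Dnajc27 gave -0.58 and did not pass over the probes tested (adjusted p = 0.204).

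A pair of DNAJC genes stood just outside the threshold, on opposite sides. Dnajc1, an ER membrane J protein, read 5.01, 5.95 and 4.69 in mesoderm, against 7.10, 6.15 and 6.22 in crest, and 1 mesoderm array was above background. The groups did not overlap, with a difference of -1.27 ± 0.38 (limma adjusted p = 0.0526), and without mesoderm array 2 it was -1.60 and passed (adjusted p = 0.0205). It was smaller in other settings, at -0.79 with an offset of 50, -0.50 in the authors' log2 values and -0.03 with the deposited detection p-values in the filter, which read the gene from another probe. Dnajc4 read 7.35, 6.94 and 7.91 in mesoderm, against 6.68, 5.73 and 6.59 in crest. Its groups did not overlap either, with a difference of 1.07 ± 0.34 (limma adjusted p = 0.0644), and it was chosen after its values were seen. Without mesoderm array 2 the Dnajc4 difference was 1.30 and passed (adjusted p = 0.0497), and over the 15 alternative settings it was 0.57 to 1.30.

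Dnajc19, a part of the import motor of the inner membrane, stood at 12.66, 12.79 and 12.79 in mesoderm, against 12.89, 12.52 and 12.63 in crest. Its arrays overlapped, with a difference of 0.06 (-0.42 to 0.55; limma adjusted p = 0.876), which was -0.09 under median scaling. Dnajc15, related to it, differed by 0.56 ± 0.27 (limma adjusted p = 0.196) with no overlap, and was chosen after its values were seen. The remaining DNAJC genes, among them the synaptic vesicle protein Dnajc5 and the splicing-associated Dnajc8, had differences of -0.83 to 0.07, and none passed.

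Proteins that work with the chaperones were taken as a second list of 38 genes, 35 of them tested: co-chaperones of HSP70 and HSP90 and the subunits of TRiC, the cytosolic chaperonin that folds actin and tubulin. Limma's adjusted test called 0 higher and 3 lower in mesoderm, a share of 8.57% against 18.3% of all genes. An unadjusted p under 0.05 in either direction was found for 6 (17.1%), against 32.4% of all genes. The median difference was -0.29, against -0.07 for all genes, with 29 of 35 below 0 (82.9%, against 55.5% of all genes). Groups that did not overlap were found for 8 lower genes and 0 higher genes, together 22.9%. Over all genes that share was 37.2%, with 19.6% lower and 17.6% higher. Ptges3, the HSP90 co-chaperone p23, read 7.32, 8.19 and 8.26 in mesoderm, against 8.89, 9.42 and 8.95 in crest. All mesoderm arrays were lower, by a difference of -1.16 ± 0.31 (limma adjusted p = 0.0313). Stip1, the adaptor that hands clients from HSP70 to HSP90, stood at 10.62, 10.67 and 10.49 in mesoderm, against 11.20, 11.83 and 11.60 in crest, a difference of -0.95 ± 0.24 (limma adjusted p = 0.0245). Cct6a, a TRiC subunit, stood at 11.55, 11.48 and 11.10 in mesoderm, against 11.99, 12.77 and 12.21 in crest, a difference of -0.95 ± 0.27 (limma adjusted p = 0.0422). Neither gene's groups overlapped. The count of lower genes was 0 without crest array 2, without crest array 3 or without mesoderm array 1. Whether the co-chaperones differ from all genes as a list was not tested.

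Several genes were read by more than 1 probe, and the probes did not always give the same value. Of 13 chaperone genes with several detected probes, 10 had the same sign in all and 3 (Dnaja3, Dnajb3 and Dnajb6) had opposite signs, none of them called. At the level of probes, 5 of 59 chaperone probes passed, against 16.1% of 13057 named probes. One of these belongs to Dnajc11, a mitochondrial J protein whose brightest probe differed by -0.17 ± 0.40. That second probe read 4.50, 4.60 and 4.61 in mesoderm, all at background, against 6.32, 6.15 and 6.24 in crest. It was at least 1.89-fold lower in mesoderm (limma adjusted p over probes = 0.000875) and was chosen after its values were seen. This probe was kept through the crest arrays alone, and its deposited detection p-values did not go with its signals. Hspa8 had further probes at -0.56 ± 0.34 and -1.39 ± 0.71, neither of which passed. A second Hspd1 probe was at -1.12 ± 0.39 (limma adjusted p over probes = 0.0909). A second Hsf2 probe read 5.11, 4.84 and 4.85 in mesoderm, all at background, against 6.00, 5.96 and 5.37 in crest, at least 1.38-fold lower in mesoderm. It too was kept through the crest arrays alone and did not pass (limma adjusted p over probes = 0.0555). The deposited detection p-values of both Hsf2 probes did not go with their signals. Which transcripts each probe reads was not tested.

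**Figure D4:**
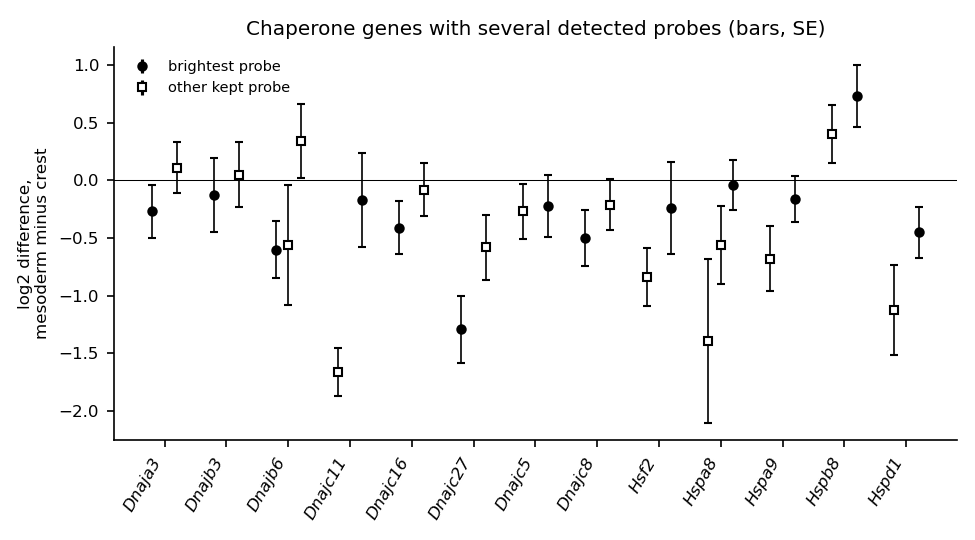
Log2 difference (mesoderm minus crest, SE as bars) of every detected probe of the 13 chaperone genes with several such probes, with the brightest probe of each gene filled. The lower points of Dnajc11 and Hsf2 are set against background in mesoderm, where neither probe was detected, and the probes of Dnajb6 fall on both sides of 0.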

How the data were processed

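Signals of 45281 probes on 6 arrays were used. The deposited non-normalized table gives a signal intensity for each probe and array, and beside it a detection p-value that the authors deposited. The signals were treated here as linear and not background-subtracted. The authors' deposited log2 values equalled these signals after quantile normalization to within 0.00571, and served as an alternative. In 12273 probes (27.1%) the deposited detection p-value lay over 0.06 from a running median, taken over 101 probes in order of signal, so the p-value was re-read from that median. Of 49 such chaperone lines, 48 had a p that went with another probe of the same gene, and 11 lines of this kind represent a tested chaperone. These are Dnaja2, Dnajb9, Dnajc1, Dnajc2, Dnajc12, Dnajc19, Dnajc24, Dnajc28, Dnajc30, Hsf2 and Hspb1, and no called gene is among them. Whether the signal or the p stands on the wrong line was not tested.

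Probes were named from the table supplied for the platform: 34885 had 1 symbol, 10378 had none and 18 had several. Signals were background-corrected with limma 3.58.1 in R 4.3.3 (normexp, offset 16), quantile-normalized and put on the log2 scale. A probe was kept at a detection p-value under 0.05 on at least 3 arrays, and the brightest kept probe stood for its gene. limma's lmFit and eBayes compared the groups, two-sided, with no other term, and the steps were tested on simulated data. Where a group had no array that detected a gene, the fold is a bound against the lowest detected value of each array. The number of arrays limits the precision. At most 1 probe had an identical signal on any 2 arrays.

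Members and gene lists were chosen with earlier results of these data known. Named with full values were the genes past the threshold, in each family the brightest member and the one with the largest difference that did not pass, and the heat shock response genes, and any other gene named was chosen after its values were seen. Replicate numbers were checked as pairs. Deviations of same-numbered arrays correlated at 0.116, 0.32 and 0.0174, against -0.326 to 0.205 for arrays of different number. With 3 arrays in a group these values cannot decide whether the arrays were paired. Same-numbered arrays are not known to be pairs and were not taken as such, and a block for the number was run as an alternative. The sources used here do not give litter, day or number of embryos per replicate.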

Additional observations from a re-analysis of the deposited data

How the results depend on the processing

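No difference of a called gene changed sign under any of the alternatives run (background correction, offset, detection filter, scaling, the authors' values, probe rule, single arrays left out and replicate numbers). Over the 18 genes named by rule, 263 gene and setting pairs kept their side of the threshold, 15 lost the call and 6 gained it, and 12 changed sign without being called. Median scaling moved the median of all genes to -0.30 and that of the chaperones to -0.39, and left 1 chaperone higher, with 595 of all genes higher. The number of chaperones lower was 1 in the authors' log2 values, 1 with no background correction, 1 with an offset of 50, 0 with detection required on all 6 arrays, 0 with no detection filter and 5 with the mean of a gene's probes. Hspb2 was lost in the first 3 of these settings and both genes with no filter, detection on all 6 arrays left neither for testing, and the mean of probes added Dnajc1, Dnajc11 and Hspd1. Detection on all 6 arrays gave 519 genes higher and 439 lower of all, and 5 stress genes higher. Co-chaperones lower numbered 1 with the deposited detection p-values in the filter and 1 with no filter. With single arrays left out, chaperones higher numbered 1 to 4, chaperones lower 0 to 2, the chaperone median -0.23 to -0.07, co-chaperones higher 0 to 1 and lower 0 to 2, stress genes higher 3 to 8 and lower 0 to 1, all genes higher 433 to 758 and all genes lower 237 to 718. Which array decides was given beside each gene, and the cause was not tested.

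Without any one crest array Hspb2 was not tested. The samples share a number and are not known to be paired. With the replicate number as a block, 3 chaperones were higher and 3 lower, Dnajc4 (adjusted p = 0.0209) and Dnajc1 (adjusted p = 0.0478) being added, and 1 stress gene was lower. Of all genes 1029 were then higher and 917 lower, against 927 and 760 without the block. The deposited detection p-values could not be used for the background itself, since they gave background means of 439 to 817 against median signals of 99.8 to 131. Genes near background, such as Hspa5, Hspb1, Hspb2, Dnajc1 and Dnajc27, rest partly on values that depth of signal cannot separate from background.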
